A study of Triticum aestivum and Aegilops tauschii and Triticum carthlicum with 33 samples.

Results

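AdSS (LOC543243) and APRT (LOC543227) are a pair of wheat genes whose enzymes make AMP by different routes. All probe sets that the platform annotation gives to these genes were taken, which was 1 for each gene. They are 2 of the 771 genes that carry a symbol on this array, and 2 of the 61179 probe sets tested. The members were chosen by name and not by their values, though earlier results of these data were known.

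Adenylosuccinate synthetase, the AdSS enzyme, joins aspartate to IMP and so commits this last product of new purine synthesis to the adenine branch, where adenylosuccinate lyase then releases AMP. Adenine phosphoribosyltransferase, the APRT enzyme, recovers free adenine by joining it to phosphoribosyl pyrophosphate, which gives AMP in a single step. In Arabidopsis the main APRT also accepts cytokinin bases, and plants without it are male sterile. AdSS is the target of the phosphorylated form of the herbicide hydantocidin. In leaves, AMP from both routes feeds the ATP pool, nucleic acids and the adenosyl group of S-adenosylmethionine.

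Leaf RNA was hybridised to the Affymetrix wheat GeneChip in 33 arrays, 3 per group in 11 groups. Allo-960S7 was a newly synthesized hexaploid at selfed generation 7, and its RNA mix held 2 parts of Blackbird and 1 part of 30A. XX329 was a hexaploid resynthesized with Extracted-tetra as the maternal parent, and its mix held 2 parts of Extracted-tetra and 1 part of TQ18. Extracted-tetra carries the B and A genomes taken out of a bread wheat by crossing to a durum line and backcrossing, and TAA10 was the bread wheat (T. aestivum), with the B, A and D genomes. The Aegilops tauschii lines 30A and TQ18 carry the D genome alone. Blackbird (subspecies carthlicum), TTR13 (durum) and TD265 (dicoccoides) were natural tetraploids of T. turgidum with the B and A genomes. Each group other than the RNA mixes was 1 line, and growth chambers kept a 16 h day at 24 °C and a night temperature of 20 °C. The replicates are labelled biological, but the labels do not say whether they were separate plants, so p-values measure the spread between these arrays. No sequence of the probes was given, so transcripts of the B, A and D copies of each gene cannot be told apart, nor can a lower affinity for the copy of 1 genome be told from less RNA.

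Values are log2 probe set summaries, in which a difference of 1 is a 2-fold change, and levels of different probe sets are not read as relative amounts of RNA. A difference was called where the adjusted p of a limma fit to all 33 arrays was under 0.05 (Benjamini-Hochberg over all 61179 probe sets). Array medians lay between 4.37 and 4.48, and arrays of a group correlated with r from 0.979 to 0.996 across probe sets. All 4 leaf markers named on the array (rbcl, PRK, OEE1 and OEE2) had group means from 7.69 to 14.4. Of 8 seed storage genes, 7 had group means no higher than 5.20, and the avenin-like gene LOC100125692 reached 10.196. The 9 hybridisation control probe sets averaged 8.64 to 9.11 on the 12 arrays of Allo-960S7, its mix and its parents (Blackbird and 30A), and 9.35 to 10.002 on the other 21. Each group lay in 1 of these array sets, so a comparison across them cannot be told apart from the set. Each array was also centred on these controls. The median difference over all probe sets after this centring is called the median shift. Its size was 0.440 to 0.963 log2 units in the 28 pairs of groups that cross the sets. Within a set it was at most 0.353. This centring subtracts a constant from each array. A difference given below relative to the median shift is therefore the uncentred difference less its own median, and is no separate check.

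Both genes gave a signal well above the array median in every leaf sample. AdSS had a mean of 9.54 over the 33 arrays, and single arrays ran from 8.87 to 10.01 with a median of 9.57. APRT had a mean of 11.06, and single arrays ran from 10.48 to 11.45 with a median of 11.10. The group means spanned 0.87 log2 units for AdSS (1.82-fold) and 0.78 for APRT (1.72-fold), against a median span of 0.70 over all probe sets. Replicate arrays were closer to each other than for most genes. The residual SD within groups was 0.109 for AdSS and 0.101 for APRT, below that of all but 4.09% and 2.49% of the probe sets, and the median was 0.182. Differences between groups made up 86.7% of the variance of AdSS and 88.3% of that of APRT.

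**Figure D1:**
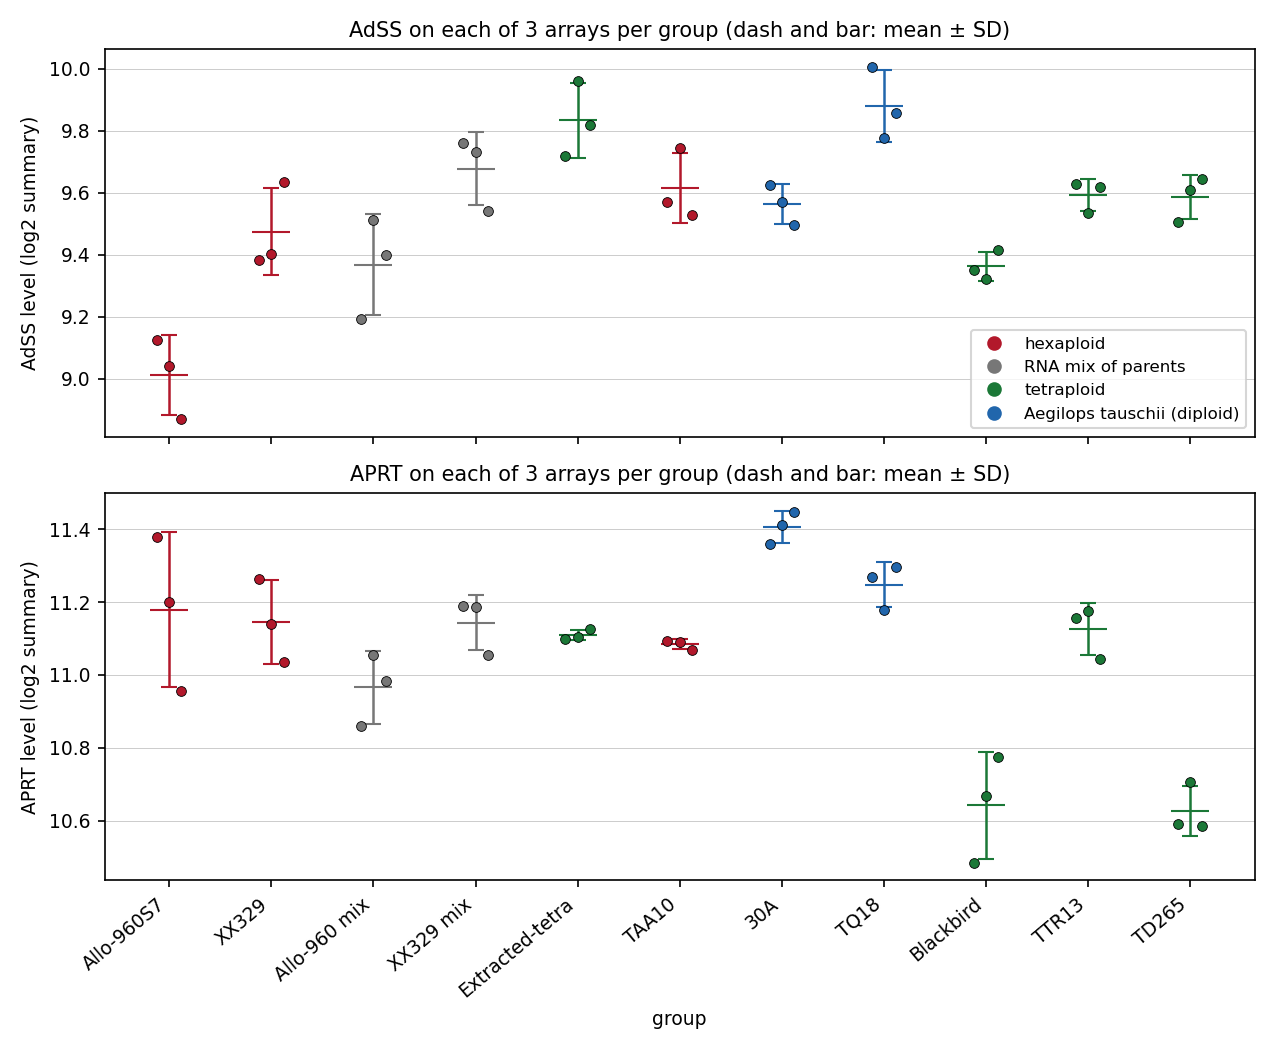
Levels of AdSS (upper panel) and APRT (lower panel) as log2 summaries on the vertical axes, for the 11 groups on the horizontal axis; points are the 3 arrays of a group, dashes and bars the mean ± SD. Allo-960S7 holds the 3 lowest AdSS arrays (8.87 to 9.13), and Blackbird and TD265 hold the 6 lowest APRT arrays (10.48 to 10.78).

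AdSS was lowest in the synthetic hexaploid in the uncentred values. Its values were 9.13, 9.04 and 8.87 in Allo-960S7, and no array of any other group reached so low, the nearest being 9.19 in Allo-960 mix. Allo-960S7 was called lower than each of the 10 other groups, by 0.35 log2 units against Blackbird up to 0.87 against TQ18. Over all probe sets, 14.9% of such comparisons were called lower in Allo-960S7. With control centring, Allo-960S7 was below 7 of the 10 groups and called lower in 1. XX329 was then the lowest group, below all 10 others and called lower in 4. 30A then lay above all 10 others and was called higher in 7. Only Allo-960 mix, Blackbird and 30A share the array set of Allo-960S7. Relative to the median shift Allo-960S7 was below all 10, which only restores the uncentred differences less their medians.

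The other AdSS means followed in small steps. They were 9.36 in Blackbird, 9.37 in Allo-960 mix, 9.47 in XX329, 9.56 in 30A, 9.59 in TD265, 9.59 in TTR13, 9.62 in TAA10, 9.68 in XX329 mix, 9.83 in Extracted-tetra and 9.88 in TQ18 (n = 3 each). The SD lay between 0.0475 and 0.162. Of the 10 steps between neighbours only that from Allo-960S7 to Blackbird was called, so the order of the other 10 groups is not secure step by step. At the upper end, TQ18 was called higher than 8 of the 10 other groups (23.9% of such comparisons over all probe sets) and Extracted-tetra higher than 5 (13.8%). With control centring, however, TQ18 was below 9 of the other groups and Extracted-tetra below 3. Relative to the median shift these counts were 1 and 0.

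APRT had a different order, with a pair of low tetraploids and 30A on top. TD265 (10.63 ± 0.0691) and Blackbird (10.64 ± 0.147) lay lowest, then came Allo-960 mix (10.97 ± 0.0991), TAA10 (11.08 ± 0.0139), Extracted-tetra (11.11 ± 0.0142) and TTR13 (11.13 ± 0.0715), all mean ± SD (n = 3 each). XX329 mix (11.14 ± 0.0758), XX329 (11.15 ± 0.115), Allo-960S7 (11.18 ± 0.212), TQ18 (11.25 ± 0.0615) and 30A (11.41 ± 0.0443) followed (n = 3 each). The step from Blackbird to Allo-960 mix was called and the other 9 were not. TD265 and Blackbird were each called lower than 9 of the 10 other groups, where 15% and 12.7% of such comparisons were called lower over all probe sets. 30A was called higher than 8 (24.7% over all probe sets). With control centring TD265 was still below all 10 groups, 30A above all 10, and Blackbird below only 3, while TQ18 was below 9.

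Of the 55 pairs of groups, AdSS was called in 23 and APRT in 25, against a median of 12 over all probe sets, and 27.5% of all pair comparisons of all probe sets were called. The orders of the genes were only loosely related. Across the 11 group means Pearson's r was 0.19 and Spearman's rho 0.15, and across the 33 arrays 0.21 and 0.26. After removal of group means r was 0.36 over the 33 arrays, which share the scaling of their array.

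**Figure D2:**
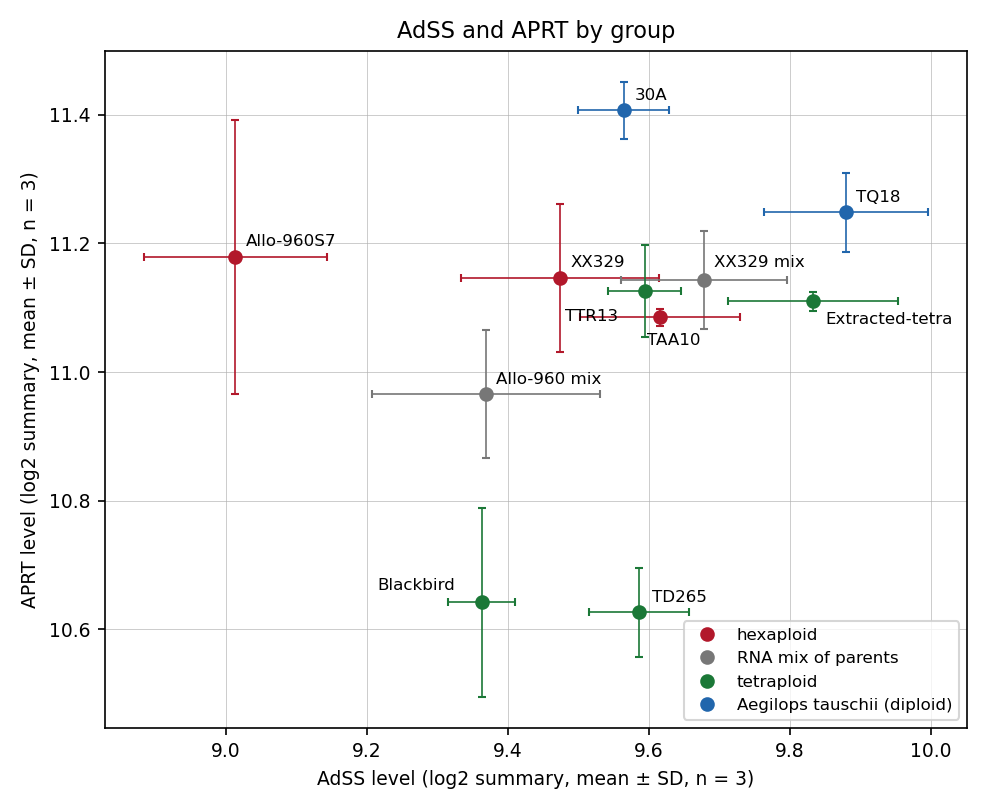
Mean APRT level (vertical axis) against mean AdSS level (horizontal axis), both as log2 summaries, with SD bars over 3 arrays, for the 11 groups. Allo-960S7 lies far left at a high APRT level, and Blackbird and TD265 lie low in APRT, so that the points form no single line (r = 0.19, n = 11 groups).

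The Allo-960S7 hexaploid was set against the mix of its parents' RNA, a stand-in for additive expression. AdSS had 9.13, 9.04 and 8.87 in Allo-960S7, against 9.19, 9.51 and 9.40 in Allo-960 mix. The groups did not overlap, and AdSS fell by 0.36 log2 units (SE 0.104, 1.28-fold lower, adjusted p = 0.0281). APRT had 11.38, 11.20 and 10.96 in Allo-960S7 and 10.86, 11.06 and 10.98 in Allo-960 mix. Its arrays overlapped, and the difference of 0.21 (95% interval 0.01 to 0.42, adjusted p = 0.224) was not called. It was 0.11 without Allo-960S7 replicate 1 and 0.32 without replicate 3, not called in either. So 1 of the 2 genes was called, where 8.54% of all probe sets were. The AdSS call was lost without Allo-960S7 replicate 2 (−0.37, adjusted p = 0.0678) or 3 (−0.28, 0.163) and without Allo-960 mix replicate 2 (−0.28, 0.187) or 3 (−0.34, 0.0944). It was also lost in a fit of these 6 arrays alone (adjusted p = 0.102), after a further quantile normalization (−0.25, adjusted p = 0.128) and with control centring (−0.36, adjusted p = 0.351).

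Measured against the parents themselves, AdSS in Allo-960S7 was below both. Blackbird had 9.35, 9.32 and 9.42, and 30A had 9.63, 9.57 and 9.497, so that no parental array fell under 9.32. AdSS was 1.27-fold lower in Allo-960S7 than in Blackbird (−0.35, SE 0.104, adjusted p = 0.0149) and 1.47-fold lower than in 30A (−0.55, SE 0.104, adjusted p = 7.45e-05). The call against Blackbird was lost without Allo-960S7 replicate 3 (−0.28, adjusted p = 0.108) or Blackbird replicate 3 (−0.32, adjusted p = 0.0633) and with control centring (−0.45, adjusted p = 0.0761), while that against 30A was kept in every fit run. Over all probe sets, 19.2% were called between Allo-960S7 and Blackbird and 34.5% between Allo-960S7 and 30A.

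The APRT mean of Allo-960S7 lay between those of its parents. 30A had 11.36, 11.41 and 11.45 and Blackbird had 10.48, 10.67 and 10.78, a parental gap of 0.76 (30A minus Blackbird, SE 0.0995, adjusted p = 1.42e-07; 38.6% of all probe sets were called). Allo-960S7 was 1.45-fold higher than Blackbird (0.54, SE 0.0995, adjusted p = 0.000133), and its lowest array, 10.96, lay above the highest of Blackbird, 10.78. Against 30A its difference was −0.23 (95% interval −0.43 to −0.02, adjusted p = 0.078), which was not called, although it was without Allo-960S7 replicate 1 (−0.33, adjusted p = 0.0168). With control centring the call against Blackbird was lost (0.44, adjusted p = 0.082).

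The physical mix of this family came close in APRT to the value its proportions give. Allo-960 mix measured 10.97 and a mix calculated from the parents' means on the linear scale came to 10.94, a gap of 0.02 log2 units where the median over all probe sets was −0.12. Allo-960 mix was 1.25-fold higher in APRT than Blackbird (0.32, SE 0.0995, adjusted p = 0.0369; 8.99% of all probe sets called). It was 1.36-fold lower than 30A (−0.44, SE 0.0995, adjusted p = 0.000686; 38.5% called). The mix was made from RNA of these parents, so its place between them follows from the parental gap and is not a separate result. The call against Blackbird was lost without either array 2 or 3 of the mix (0.28 and 0.32) or array 1 or 2 of Blackbird (0.24 and 0.34). Control centring (0.23, adjusted p = 0.428), a further quantile normalization (0.28, 0.0688) and a fit of these groups alone (adjusted p = 0.0988) ended it too, and control centring ended the call against 30A (−0.34, 0.174). For AdSS the physical mix was 9.37 and the calculated one 9.43, a gap of −0.06.

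**Figure D3:**
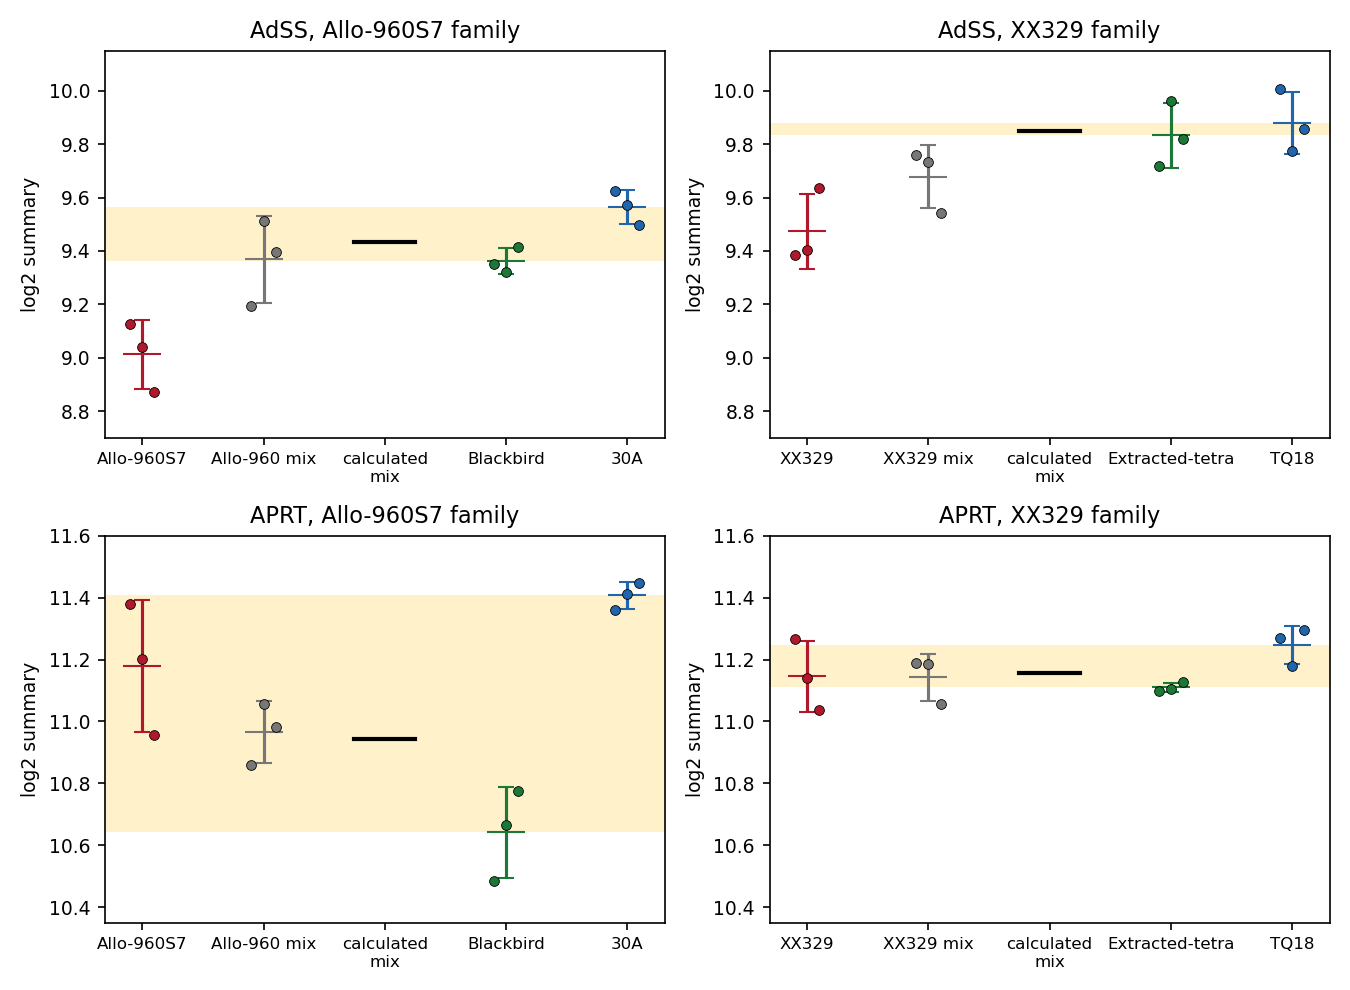
AdSS (upper row) and APRT (lower row) as log2 summaries on the vertical axes in the Allo-960S7 family (left) and the XX329 family (right), with the hexaploid, the physical RNA mix, the mix calculated from the parents' means (black line) and both parents; points are arrays, dashes and bars mean ± SD (n = 3), and the yellow band spans the parents' means. The AdSS means of both hexaploids, 9.01 in Allo-960S7 and 9.47 in XX329, lie below the band, and both APRT means lie inside it.

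No departure of the resynthesized hexaploid XX329 from its physical mix was called in either gene. AdSS had 9.38, 9.40 and 9.635 in XX329, against 9.76, 9.73 and 9.54 in XX329 mix. The groups overlapped through XX329 replicate 3 and XX329 mix replicate 3, and the difference was −0.20 (95% interval −0.42 to 0.01, adjusted p = 0.433). APRT had 11.26, 11.14 and 11.04 in XX329 and 11.19, 11.19 and 11.06 in XX329 mix. The arrays overlapped, and the difference was 0.00 (95% interval −0.20 to 0.21, adjusted p = 0.995). Of all probe sets, 1.88% were called in this comparison.

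Against its parents, however, XX329 was low in AdSS. Extracted-tetra had 9.72, 9.96 and 9.82, and TQ18 had 10.01, 9.78 and 9.86, so all 3 XX329 arrays lay below all 6 parental ones. AdSS was 1.28-fold lower in XX329 than in Extracted-tetra (−0.36, SE 0.104, adjusted p = 0.0135) and 1.33-fold lower than in TQ18 (−0.41, SE 0.104, adjusted p = 0.00239), where 18.7% and 36.8% of all probe sets were called. The XX329 mix itself, at 9.68, lay below both parents in AdSS and 0.17 below the calculated mix of 9.85, where the median gap over all probe sets was −0.11. The differences of this mix from Extracted-tetra (−0.15, adjusted p = 0.382) and TQ18 (−0.20, adjusted p = 0.126) were not called. Against the calculated mix, AdSS in XX329 differed by −0.38, while the median of all probe sets in that comparison was −0.10. The limma fit put it under the threshold (adjusted p = 0.00998). However, the calculated arrays were made from same-numbered parental arrays that stayed in the fit. They are not independent replicates, so this p is not read as a call. The call against Extracted-tetra was lost without Extracted-tetra replicate 2 (−0.30, adjusted p = 0.0878), XX329 replicate 1 (−0.31, 0.0618) or XX329 replicate 2 (−0.32, 0.0573). A fit of only the groups compared ended both parental calls (adjusted p = 0.142 and 0.0815), the actin covariate described below that against Extracted-tetra (−0.43, 0.0538), and control centring that against TQ18 (−0.30, 0.239).

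No difference between the departures of the hexaploids from their mixes was called in either gene. XX329 minus Allo-960S7 was 0.15 for AdSS (95% interval −0.15 to 0.45, adjusted p = 0.735) and −0.21 for APRT (95% interval −0.50 to 0.08, adjusted p = 0.558), with 4.02% of all probe sets called. The APRT value was −0.11 without Allo-960S7 replicate 1 and −0.32 without replicate 3. The AdSS gap to the tetraploid parent was −0.35 in Allo-960S7 and −0.36 in XX329, and the test of their difference gave 0.01 (95% interval −0.29 to 0.31, adjusted p = 0.987). The gaps to the diploid parent, −0.55 in Allo-960S7 and −0.41 in XX329, differed by −0.15 (95% interval −0.45 to 0.16, adjusted p = 0.657).

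For APRT the families did differ in the gap to the tetraploid parent. It was 0.54 in Allo-960S7 over Blackbird and 0.04 in XX329 over Extracted-tetra, a difference of 0.50 (SE 0.141, adjusted p = 0.0259; 6.71% of all probe sets called). The gap between the parents themselves differed too. It was 0.76 for 30A over Blackbird and 0.14 for TQ18 over Extracted-tetra, a difference of 0.63 (SE 0.141, adjusted p = 0.00193; 15.1% called). The gaps to the diploid parent were −0.23 and −0.10 and differed by −0.13 (95% interval −0.41 to 0.16, adjusted p = 0.693; 9.78% called). These comparisons within families remove a constant offset between the array sets, and they were added after the values had been seen. The first of these calls, on the tetraploid parent, was lost without Allo-960S7 replicate 1 (0.40, adjusted p = 0.111) or 2 (0.49, 0.0603), Blackbird replicate 1 (0.42, 0.0971), Extracted-tetra replicate 3 (0.49, 0.0552) or XX329 replicate 3 (0.44, 0.073). It was also lost in a fit of these groups alone (adjusted p = 0.133), with the actin covariate (0.50, 0.0553) and with control centring (0.71, 0.0929). The difference between the parents was called in each fit run for it, which left out single arrays of the 4 parents only, and ran from 0.55 to 0.69 with 1 of these left out.

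Taking the D genome out of bread wheat was examined with Extracted-tetra and TAA10. AdSS had 9.72, 9.96 and 9.82 in Extracted-tetra, against 9.57, 9.74 and 9.53 in TAA10. TAA10 replicate 2 overlapped with Extracted-tetra, and the difference of 0.22 (95% interval 0.00 to 0.43, adjusted p = 0.166) was not called. APRT was almost constant across these 6 arrays, with 11.10, 11.10 and 11.13 in Extracted-tetra and 11.09, 11.09 and 11.07 in TAA10. All 3 Extracted-tetra arrays lay just above all 3 of TAA10, and the difference was 0.02 (95% interval −0.18 to 0.23, adjusted p = 0.917). Neither gene was called where 18.3% of all probe sets were. The difference between the 3′ and 5′ actin control probe sets is used to gauge RNA quality and served here as a covariate. It was not shown to measure RNA quality alone across lines with different genomes. This difference had a mean ± SD of 0.337 ± 0.245 in the Extracted-tetra arrays and of −0.464 ± 0.186 in the TAA10 arrays (n = 3 each). Its part in these results was not tested beyond the covariate.

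Against the natural tetraploids, both genes were higher in Extracted-tetra, but not against each line. AdSS averaged 9.83 over the 3 Extracted-tetra arrays and 9.51 ± 0.124 (mean ± SD) over 9 arrays of the 3 natural lines. The 9 arrays ran from 9.32 to 9.64 with a median of 9.53, below every Extracted-tetra array, and the difference was 0.32 (SE 0.085, 1.25-fold, adjusted p = 0.00607). By line, AdSS was called against Blackbird (0.47, SE 0.104, adjusted p = 0.00112) and not against TTR13 (0.24, 95% interval 0.03 to 0.45, adjusted p = 0.147) or TD265 (0.25, 95% interval 0.03 to 0.46, adjusted p = 0.0773), although no arrays overlapped. The difference from TD265 was called with median centring (0.30, adjusted p = 0.0419) and with array weights (0.25, 0.0259). The call against Blackbird was lost with the actin covariate (0.59, adjusted p = 0.0792). With control centring the difference from Blackbird turned to −0.14, or 0.49 relative to the median shift. The mean over lines was no longer called without Blackbird (0.24, adjusted p = 0.054), without Extracted-tetra replicate 2 (0.26, adjusted p = 0.077), with the actin covariate (0.39, adjusted p = 0.0817) or with control centring (0.16, adjusted p = 0.407).

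APRT averaged 11.11 in Extracted-tetra (n = 3) and 10.80 ± 0.261 (mean ± SD) over 9 arrays of the 3 natural lines, a difference of 0.31 (SE 0.0812, 1.24-fold, adjusted p = 0.00504). Those 9 arrays ran from 10.48 to 11.18 with a median of 10.71. TTR13, with 11.16, 11.18 and 11.04, overlapped Extracted-tetra, while Blackbird, with 10.48, 10.67 and 10.78, and TD265, with 10.59, 10.71 and 10.58, lay below it. Extracted-tetra was 1.38-fold higher than Blackbird (0.47, SE 0.0995, adjusted p = 0.000731), a difference that turned to −0.14 with control centring (0.48 relative to the median shift) and was not called with the actin covariate (0.47, adjusted p = 0.17). It was 1.40-fold higher than TD265 (0.48, SE 0.0995, adjusted p = 0.000401), and against TTR13 the difference was −0.02 (95% interval −0.22 to 0.19, adjusted p = 0.951). The p-values of such means do not measure the spread between lines, and the call was lost with either Blackbird (0.23, adjusted p = 0.0524) or TD265 (0.23, adjusted p = 0.0634) left out. The actin covariate (0.31, adjusted p = 0.173) and control centring (0.15, adjusted p = 0.43) also ended it. Both genes were called where 24.4% of all probe sets were. For single lines the share was 24% against Blackbird, 12.2% against TTR13 and 28.1% against TD265.

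Bread wheat was set against the same tetraploids. APRT was 1.22-fold higher in TAA10 than in the natural tetraploids (0.29, SE 0.0812, adjusted p = 0.00775). It was called against Blackbird (0.44, SE 0.0995, adjusted p = 0.00101; −0.21 with control centring and 0.51 relative to the median shift) and TD265 (0.46, SE 0.0995, adjusted p = 0.000599), for which 27% and 31.8% of all probe sets were called. Against TTR13 the APRT difference was −0.04 (95% interval −0.24 to 0.16, adjusted p = 0.836), not called, and the arrays overlapped. AdSS averaged 9.62 ± 0.114 in TAA10 (n = 3) and 9.51 ± 0.124 in the natural tetraploids (n = 9), and its difference of 0.10 (95% interval −0.07 to 0.28, adjusted p = 0.401) was not called. So 1 of the 2 genes was called, against 29.4% of all probe sets. The APRT call was lost with Blackbird (0.21, adjusted p = 0.0715) or TD265 (0.20, adjusted p = 0.0875) left out of the mean, and with control centring (0.08, adjusted p = 0.636).

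Among the natural tetraploids, APRT was called in 2 of the 3 pairs of lines. TTR13 was 1.41-fold higher than TD265 (0.50, SE 0.0995, adjusted p = 0.000321), with both lines in the same array set. Blackbird was 1.40-fold lower than TTR13 (−0.48, SE 0.0995, adjusted p = 0.000744), but this pair crosses the array sets and the difference turned to 0.14 with control centring (−0.47 relative to the median shift). In these comparisons 22.3% and 16.3% of all probe sets were called. AdSS had 9.35, 9.32 and 9.42 in Blackbird, 9.63, 9.53 and 9.62 in TTR13 and 9.51, 9.61 and 9.64 in TD265. All Blackbird arrays were below the others, by −0.23 from TTR13 (95% interval −0.44 to −0.02, adjusted p = 0.139) and −0.22 from TD265 (95% interval −0.44 to −0.01, adjusted p = 0.148), and neither was called.

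The D genome diploids had more APRT signal than the natural tetraploids. APRT averaged 11.33 ± 0.0994 over the Aegilops tauschii arrays (6 arrays of 2 lines) and 10.80 ± 0.261 over those of the natural tetraploids (9 arrays of 3 lines), all 6 arrays lying above all 9. The difference was 0.53 (SE 0.0642, 1.44-fold, adjusted p = 2.51e-08), and it was called in every fit run. Within the array sets it was 0.37 for TQ18 against TTR13 and TD265 (adjusted p = 0.000612) and 0.76 for 30A against Blackbird. By line, TQ18 was called against TD265 (0.62, adjusted p = 4.68e-06) and not against TTR13 (0.12, adjusted p = 0.353). The lowest TQ18 array, 11.178, lay just above the highest of TTR13, 11.175. AdSS averaged 9.72 ± 0.192 over the 6 Aegilops tauschii arrays and 9.51 ± 0.124 over the 9 arrays of natural tetraploids, with overlap. The difference was 0.21 (SE 0.0672, 1.15-fold, adjusted p = 0.0103). Both genes were called, as were 51.6% of all probe sets. Within the sets AdSS was called for TQ18 (0.29, adjusted p = 0.00886) and not for 30A (0.20, adjusted p = 0.136), and the mean difference was no longer called without Blackbird (0.13, adjusted p = 0.143), with the actin covariate (0.15, adjusted p = 0.251), after a further quantile normalization (0.15, adjusted p = 0.0502) or with control centring (0.05, adjusted p = 0.762).

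Between the Aegilops tauschii lines, AdSS was 1.24-fold lower in 30A than in TQ18 (−0.32, SE 0.104, adjusted p = 0.0326), although control centring turned this to 0.51 (−0.32 relative to the median shift). The call was lost without 30A replicate 2 (−0.32, adjusted p = 0.0719) or 3 (−0.28, 0.115) and without TQ18 replicate 1 (−0.25, 0.141) or 3 (−0.33, 0.0592). It was also lost after a further quantile normalization (−0.27, 0.0541), with array weights (−0.31, 0.0721), with the actin covariate (−0.39, 0.109) and in a fit of these groups alone (adjusted p = 0.145). APRT was 0.16 higher in 30A (95% interval −0.04 to 0.36, adjusted p = 0.289), which was not called, and 18.5% of all probe sets were. With control centring that difference was called (0.98, adjusted p = 8.19e-06), or 0.15 relative to the median shift.

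The hexaploids were also set against natural bread wheat. AdSS was 1.52-fold lower in Allo-960S7 than in TAA10 (−0.60, SE 0.104, adjusted p = 5.94e-05), and the highest Allo-960S7 array, 9.13, lay below the lowest of TAA10, 9.53. Allo-960S7 was also 1.38-fold lower than XX329 (−0.46, SE 0.104, adjusted p = 0.00164), whose lowest array was 9.38, although this difference turned to 0.35 with control centring (−0.46 relative to the median shift). With that centring the difference from TAA10 was −0.05 (adjusted p = 0.796), or −0.62 relative to the median shift. The actin 3′ minus 5′ difference was −1.24 ± 0.1 in Allo-960S7 and −0.464 ± 0.186 in TAA10 (n = 3 each), and its group means ran from −1.5 to −0.933 in the Allo-960 family and from −0.677 to 0.337 in the other groups. With it as a covariate AdSS was still called against TAA10 (−0.67, adjusted p = 0.00158). In these comparisons 22% and 19.7% of all probe sets were called. XX329 did not differ detectably from TAA10 in AdSS (−0.14, 95% interval −0.35 to 0.07, adjusted p = 0.67), where 2.14% of all probe sets were called.

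APRT lay close together in all hexaploids. It had 11.38, 11.20 and 10.96 in Allo-960S7 and 11.26, 11.14 and 11.04 in XX329, against 11.09, 11.09 and 11.07 in TAA10, and the arrays overlapped. The difference from TAA10 was 0.09 for Allo-960S7 (95% interval −0.11 to 0.30, adjusted p = 0.56) and 0.06 for XX329 (95% interval −0.14 to 0.27, adjusted p = 0.887). The spread was wider in the synthetic lines, with an SD of 0.212 in Allo-960S7, 0.115 in XX329 and 0.0139 in TAA10 (n = 3 each). With control centring Allo-960S7 was called higher than TAA10 (0.65, adjusted p = 0.00182), or 0.08 relative to the median shift.

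**Figure D4:**
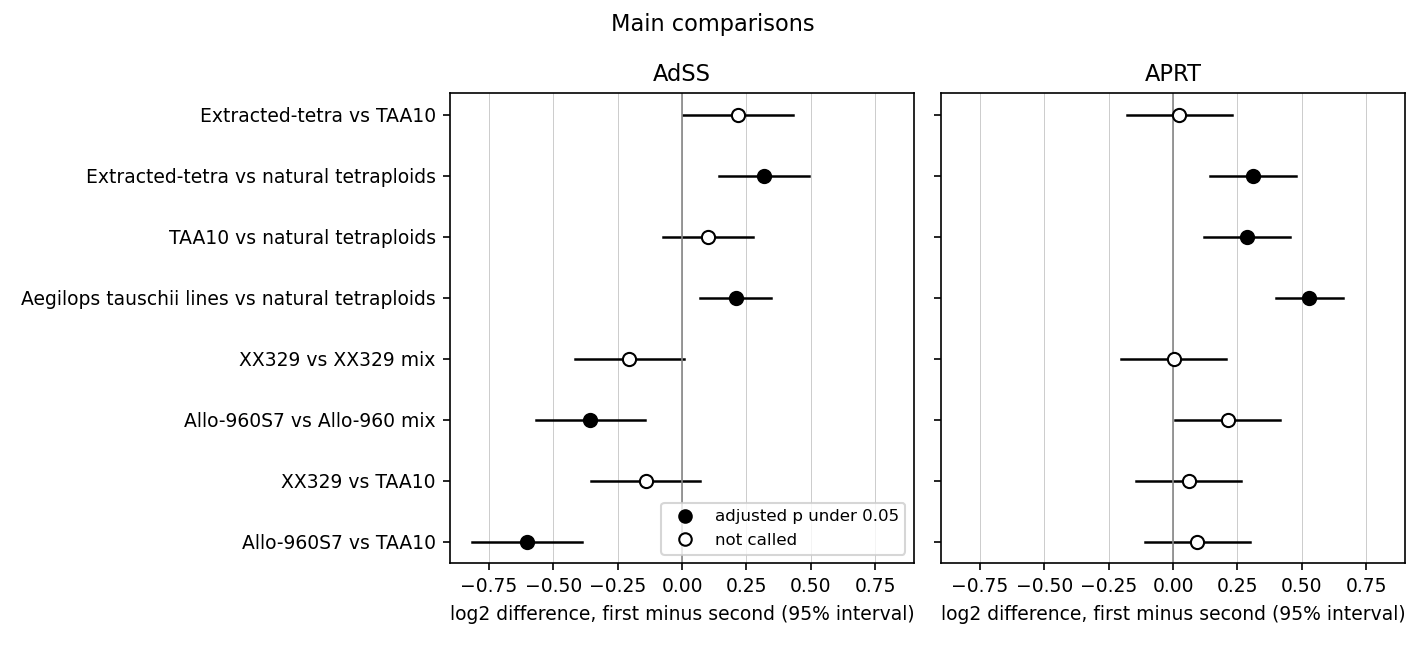
Log2 differences of AdSS (left) and APRT (right) in 8 comparisons, first group minus second on the horizontal axis, with 95% intervals; filled points were called at an adjusted p under 0.05. AdSS was called in 4 of these comparisons, with both Allo-960S7 differences below 0, and APRT in 3, all above 0.

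Other purine genes were looked for by name. A list of purine enzymes and a list of enzymes that release adenine or adenosine were matched by name to the 102 genes with a name or alias, and matched 0 and 0 besides AdSS and APRT. The annotation used gives no descriptions, so purine genes may be among the probe sets without such a name. SAHH, whose enzyme splits S-adenosylhomocysteine into homocysteine and adenosine, was missed by these words and added afterwards. Its main probe set differed by −0.92 in Allo-960S7 against its mix (SE 0.299, adjusted p = 0.0542) and by −0.70 in XX329 against its mix (SE 0.299, adjusted p = 0.308), neither called. Against TAA10 it was −0.75 in Allo-960S7 (adjusted p = 0.0717), not called and across the array sets. In XX329 it fell by 1.13 log2 units against TAA10 (adjusted p = 0.0392), though its other probe set was not called there (−1.07, adjusted p = 0.125). It was higher in 30A than in TQ18 (1.18, SE 0.299, adjusted p = 0.00553), a pair that crosses the array sets, and there its other probe set was not called (0.22, adjusted p = 0.721). The main probe set was not called in Extracted-tetra against TAA10 (−0.14, adjusted p = 0.828) or against natural tetraploids (0.07, 0.871). Nor was it called in TAA10 (0.21, 0.55) or Aegilops tauschii (−0.08, 0.76) against natural tetraploids.

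The genes with names whose 11 group means followed AdSS most closely were LOC543476 (LEA1; r = 0.64, rho 0.69), RPS29 (LOC606342; r = 0.63, rho 0.41) and COR410 (r = 0.62, rho 0.73), among 72 genes whose group means spanned at least 0.5 log2 units. LEA1 is a late embryogenesis abundant protein, RPS29 a ribosomal protein and COR410 a cold-regulated dehydrin. Such values were common, since 6.73% of all probe sets with that span followed AdSS more closely than LEA1 did. The group means of LEA1, 2.72 to 3.37, and of COR410, 3.03 to 3.55, were also below the array medians. Those of RPS29, 4.19 to 4.96, lay around them. For APRT the closest were Glc1 (LOC543469; r = 0.81, rho 0.57), eIF4E (LOC543485; r = 0.68, rho 0.77), the cap-binding translation factor, and COR410 (r = 0.68, rho 0.62). Glc1 shared the lowest group, TD265 (6.59 ± 0.159), and the highest, 30A (8.76 ± 0.41, mean ± SD, n = 3 each). Of all probe sets with that span, 1.2% followed APRT more closely than Glc1 did. The share was 6.75% for eIF4E and 7.04% for COR410.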

How the data were processed

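Leaf RNA of 33 samples was measured on Affymetrix wheat arrays, from 6 µg of total RNA each per the labels' protocols. The deposited values are log2 probe set summaries; the authors' steps are known only from the submitters' processing notes, which name RMA and limma without versions. Background was not given, so folds of dim probe sets are not secure; AdSS and APRT lie far above the array medians. Precision is limited by the number of arrays.

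Of 61290 probe sets, 111 controls were left out. The model had a mean for each of 11 groups (limma 3.58.1 under R 4.3.3, lmFit then eBayes; 22 residual and 28.51 total degrees of freedom), with Benjamini-Hochberg adjustment over 61179 probe sets within each comparison. Intervals are 95% and unadjusted. Groups came from the sample titles, and 0 arrays were identical. Genes were named through the platform annotation (1273 probe sets, 1272 matched by Entrez ID to RefSeq genes of assembly IWGSC CS RefSeq v2.1, from which no position was taken). The genes named were both members, the listed purine and adenine genes, and the 3 named genes closest to each member in Pearson's r over group means. The members and lists were chosen with earlier results of these data known.

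Same-numbered replicates were not shown to pair: r of their deviations from group means ran from −0.253 to 0.159 in the 5 comparisons of single groups. Alternatives were a filter on dim probe sets, 3 scalings, other variance settings, array weights, a replicate block, fewer groups, single arrays or lines left out, calculated mixes, control probe sets kept, and the difference of actin 3′ and 5′ probe sets as covariate. Calculated mix arrays came from same-numbered parental arrays that stayed in the fit, so their p-values and counts do not rest on independent arrays. Neither gene has a further probe set, so alternatives on the choice of probe set were not run.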

Additional observations from a re-analysis of the deposited data

Results flagged for a closer look

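APRT was picked out because the 2 families differed in it under the same contrast. The gap of the hexaploid to its tetraploid parent was 0.54 log2 units in Allo-960S7 and 0.04 in XX329. The difference of 0.50 was called (SE 0.141, adjusted p = 0.0259, limma fit), as were 6.71% of all probe sets. This call was kept in only 7 of 12 fits with single arrays left out and in 7 of 10 other settings. The gap of the diploid to the tetraploid parent was 0.76 in the Allo-960 family and 0.14 in the XX329 family. The difference of 0.63 was called (SE 0.141, adjusted p = 0.00193, limma fit), as were 15.1% of all probe sets. Both comparisons use Blackbird and Extracted-tetra, so they are not independent, and both were added after the values had been seen. All 3 Allo-960S7 arrays and all 3 arrays of 30A lay above all 3 of Blackbird. Groups of 3 arrays were not tested for outliers.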

How the results depend on the processing

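Over the 9 main comparisons of both genes, 186 of 214 values under other settings and 154 of 162 with 1 array left out kept their direction and their side of the threshold. With control centring the differences became 0.16 for AdSS and 0.15 for APRT (Extracted-tetra against natural tetraploids), −0.11 and 0.081 (TAA10 against natural tetraploids), and 0.048 for AdSS in Aegilops tauschii. They became −0.36 for AdSS in Allo-960S7 against its mix and −0.049 against TAA10, −0.16 for APRT in XX329 against its mix and −0.20 against TAA10, 0.65 for APRT in Allo-960S7 against TAA10, and −0.0040 for AdSS between the departures. It also turned AdSS to 0.35 (Allo-960S7 against XX329), 0.51 (30A against TQ18) and −0.14 (Extracted-tetra against Blackbird), and APRT to −0.14 (Extracted-tetra against Blackbird), 0.14 (Blackbird against TTR13) and −0.21 (TAA10 against Blackbird). Within a comparison this centring moves every probe set by the same amount, and the cause of the control levels was not tested.

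The actin covariate left 0.39 for AdSS and 0.31 for APRT in Extracted-tetra against natural tetraploids and 0.15 for AdSS in Aegilops tauschii, none called. A further quantile normalization gave AdSS 0.15 in Aegilops tauschii and −0.25 in Allo-960S7 against its mix, where a fit of fewer arrays gave −0.36, none called. Without Blackbird, AdSS was 0.24 in Extracted-tetra and 0.13 in Aegilops tauschii, and APRT 0.23 in Extracted-tetra and 0.21 in TAA10. Without TD265, APRT was 0.23 and 0.20 there. For AdSS, 30A against Blackbird alone gave 0.20. XX329 against the calculated mix gave −0.38, which passed the threshold on mix arrays that are not independent replicates. APRT in XX329 against its mix, near 0, became −0.0087 with median centring and −0.011 with array weights and with the calculated mix. Apart from those named, the causes were not tested.

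With 1 array left out, AdSS ran from 0.26 to 0.38 in Extracted-tetra against natural tetraploids, from −0.44 to −0.28 in Allo-960S7 against its mix, and from −0.054 to 0.090 in the difference of the gaps to the tetraploid parent. APRT ran from −0.056 to 0.059 in XX329 against its mix and from −0.0062 to 0.21 in Allo-960S7 against TAA10, and from 0.11 to 0.32 against its mix. The APRT difference between the departures ran from −0.32 to −0.11. With a replicate block, AdSS in Allo-960S7 against its mix was −0.36 (adjusted p = 0.0354) and no call of these comparisons changed; the labels do not say that the numbers pair the arrays.

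Counts of probe sets called moved by over 1.5 times in some fits. XX329 against its mix had 1152, and 701 with control centring, 67 in the fit of these groups alone, 666 without the 12 arrays, 4009 with the calculated mix and 548 to 2260 with 1 array left out. Allo-960S7 against its mix had 5227, and 2895 with control centring, 12553 with array weights, 3364 without Allo-960S7 replicate 2 and 3349 without Allo-960 mix replicate 2. XX329 against TAA10 had 1311, and 2079 with control centring, 539 in the fit of these groups alone and 2419 without XX329 replicate 3. Allo-960S7 against TAA10 had 13440, and 8131 with the actin covariate and 44389 with control centring, 96.3% of them higher. Extracted-tetra had 11206 against TAA10 and 14930 against natural tetraploids, and 5513 and 4702 with the actin covariate. The test of the departures had 2461, and 1195, 4181 and 1262 with control centring, array weights and fewer groups.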
